A study of Mus musculus with 10 samples.

Results

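The genes described here are 9 identity genes of conventional dendritic cells, chosen by symbol from the deposited count table of sorted retinal cells. All 9 were found among the 21869 genes kept from that table. Flt3, Zbtb46 and Id2 are used by both subsets of these cells, Clec9a, Xcr1, Itgae and Batf3 mark type 1 cells (cDC1), and Cd209a and Clec10a mark type 2 cells (cDC2). RNA sequencing counts came from 10 libraries of mouse retinal cells labelled WT, 5 of CD36-positive cells (libraries 1, 2, 3, 4 and 7) and 5 of CD36-negative cells (libraries 1, 2, 4, 7 and 8). One flow cytometry gate (live, CD11b-positive, CD45-intermediate), named microglia in the labels, gave both groups, which differ in the scavenger receptor CD36. Eyes were collected, per the protocol, 7 days after mice received NaIO3 at 20 mg/kg, an oxidant that damages the retinal pigment epithelium, or buffer. Treatment, age and number of mice are not given for single libraries, and nothing states that libraries came from separate mice, so p-values measure the spread between these libraries only.

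Conventional dendritic cells carry antigen to T cells. They arise from bone marrow precursors under the growth factor Flt3 ligand, whose receptor is the product of Flt3. The cDC1 subset depends on the transcription factors Batf3 and Irf8 and is known for presenting antigen from dead cells to CD8 T cells, while the cDC2 subset relies more on Irf4 and is known for priming CD4 T cells. The healthy retina holds few such cells, most of them near vessels and the optic nerve. They can carry CD11b and CD45, but how many of them pass a gate on intermediate CD45 was not tested.

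Total counts per library ran from 5001692 to 13250984. All 9 genes passed the filter on low counts and were tested with 11596 genes in all. Microglia genes were abundant in both groups, with a summed level over 12 genes (P2ry12 among them) of 7418 to 16150 CPM in CD36-positive libraries and 7214 to 16110 CPM in CD36-negative libraries, where CPM is the count of a gene relative to the library size as scaled by the TMM method. Of these 12 genes 0 passed edgeR's test in either direction. Libraries 1 and 3 of the CD36-positive group were the shallowest. Library 1 lay away from all others on principal component 2 (75.4), and library 3 on component 3 (-76.95).

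Of the 9 genes, 8 were lower in CD36-positive cells and 0 were higher at an adjusted p under 0.05 (edgeR quasi-likelihood test, Benjamini-Hochberg adjustment over all 11596 genes). Over all genes tested, 4.74% were called lower and 2.61% higher, 7.36% in either direction. In the same 8 genes every CD36-positive library lay below every CD36-negative library, a pattern found in 5.83% of all genes tested, and its reverse in 2.59%. The exception was Batf3, whose groups overlapped. The log2 fold changes of CD36-positive over CD36-negative cells ran from -7.44 for Itgae to -0.15 for Batf3, with a median of -3.75, while the median of all tested genes was 0.02. In sorted bulk samples, fewer cells of a type and less RNA per cell cannot be told apart.

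**Figure D1:**
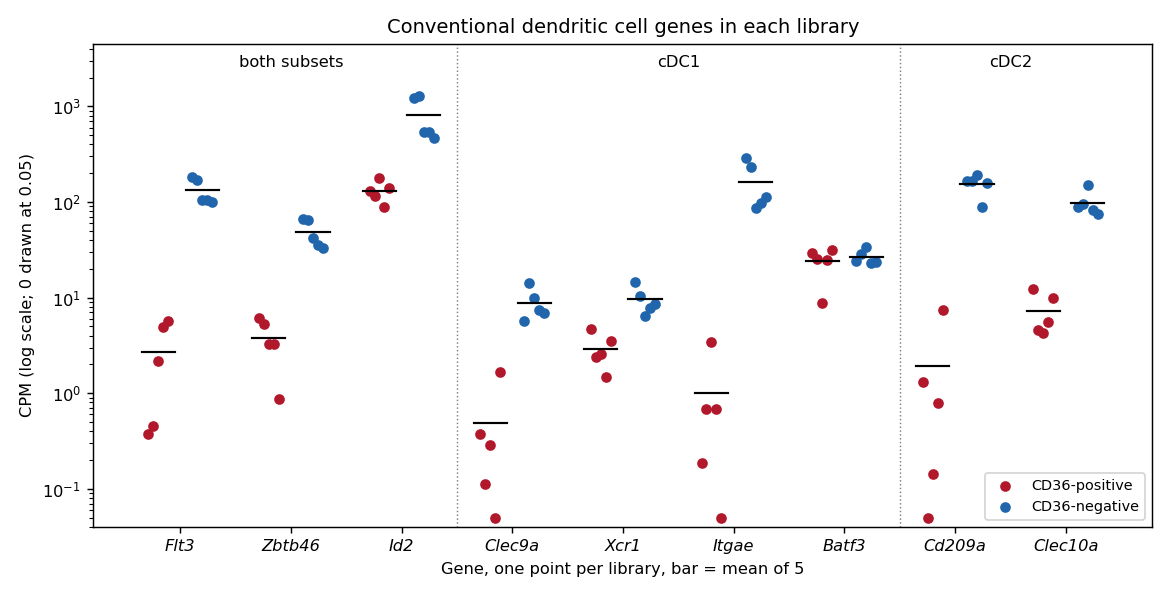
Level of each of the 9 genes in CPM (log axis, values of 0 drawn at 0.05), 1 point per library, CD36-positive in red on the left of each pair and CD36-negative in blue on the right, with a bar at the mean of 5 libraries. Points of the 2 groups are apart for 8 genes and mixed for Batf3, at 23.9 and 26.6 CPM on average.

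Among the genes of both subsets, Flt3 encodes the receptor tyrosine kinase that drives dendritic cell development (GRCm38 chromosome 5, 147330741 to 147400489, minus strand). It was at 0.372, 0.452, 2.15, 4.96 and 5.71 CPM in CD36-positive libraries 1, 2, 3, 4 and 7, against 183, 170, 106, 106 and 101 CPM in CD36-negative libraries 1, 2, 4, 7 and 8. CD36-positive libraries 1 and 2 were near 0, libraries 4 and 7 the highest of that group, and the groups did not overlap. The log2 fold change was -5.52 (SE 0.52, 95% interval -6.63 to -4.41, edgeR adjusted p = 3.54e-06).

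Zbtb46 encodes a zinc finger transcription factor that among immune cells marks conventional dendritic cells and is also used by endothelial cells (chromosome 2, 181387762 to 181459426, minus strand). It was at 6.14, 5.31, 3.30, 3.27 and 0.872 CPM in CD36-positive libraries 1, 2, 3, 4 and 7, against 65.8, 64.4, 42.2, 35.8 and 32.7 CPM in CD36-negative libraries 1, 2, 4, 7 and 8. Here library 7 was the lowest CD36-positive library, although the same library was the highest of its group for Flt3. This gave a log2 fold change of -3.70 (SE 0.42, edgeR adjusted p = 2.45e-05). Of 12 endothelial genes, 2 of 4 tested were lower too, and their summed level was 11.2 to 13.7 CPM in CD36-positive libraries and 29.0 to 45.1 CPM in CD36-negative libraries. Pecam1, the most abundant of them, was at 1.46 to 5.98 CPM in CD36-positive libraries, against 6.24 to 21.96 CPM in CD36-negative libraries (-1.88, edgeR adjusted p = 0.0379), a call lost when any 1 of the libraries numbered 1, 4 or 7 was left out, in either group. Flt1, a VEGF receptor gene, was the other one called, at 0.113 to 2.82 CPM in CD36-positive libraries, against 4.80 to 15.2 CPM in CD36-negative libraries (-2.83, edgeR adjusted p = 0.0222). Cdh5 reached at most 0.903 CPM in CD36-positive libraries and 0.858 CPM in CD36-negative libraries, and Tie1 had no count in any library. The part of endothelial cells in the Zbtb46 values was not tested.

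Id2 encodes an inhibitor of E proteins that is needed for cDC1 development and is also used by innate lymphoid and NK cells (chromosome 12, 25093799 to 25097140, minus strand). It was the most abundant of the 9 genes, at 130, 117, 177, 89.3 and 141 CPM in CD36-positive libraries 1, 2, 3, 4 and 7, against 1237, 1297, 535, 546 and 463 CPM in CD36-negative libraries 1, 2, 4, 7 and 8. CD36-negative libraries 1 and 2 were far above the other CD36-negative libraries, and the lowest CD36-negative library was above the highest CD36-positive one. Id2 had a log2 fold change of -2.64 (SE 0.30, edgeR adjusted p = 2.61e-05). The CD36-positive mean was 16.0% of the CD36-negative mean for Id2, against 2.05% for Flt3 and 7.84% for Zbtb46.

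The cDC1 genes did not move alike. Clec9a, a C-type lectin that binds actin exposed by dead cells (chromosome 6, 129408862 to 129424763, plus strand), had 2, 1, 2, 0 and 21 counts in CD36-positive libraries 1, 2, 3, 4 and 7, against 67, 141, 98, 71 and 83 counts in CD36-negative libraries 1, 2, 4, 7 and 8. In CPM this was 0.372, 0.113, 0.287, 0 and 1.66 in CD36-positive libraries, against 5.75, 14.2, 10.0, 7.41 and 6.94 in CD36-negative libraries. The count of 0 in CD36-positive library 4 allows a level of up to 0.338 CPM, and library 7 held most counts of its group. For Clec9a the log2 fold change was -4.06 (SE 0.84, edgeR adjusted p = 0.00531), and -5.55 without CD36-positive library 7. Clec9a shares exonic bases with its neighbour Clec1b in the annotation, and 4.02% of its transcript stretches of 50 bases also occur in another gene.

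Xcr1, the receptor for the chemokine XCL1 and the most restricted cDC1 marker of the set (chromosome 9, 123852315 to 123862029, minus strand), was at 4.65, 2.37, 2.58, 1.46 and 3.49 CPM in CD36-positive libraries 1, 2, 3, 4 and 7, against 14.5, 10.5, 6.44, 7.83 and 8.61 CPM in CD36-negative libraries 1, 2, 4, 7 and 8. The groups did not overlap, but CD36-positive library 1 and CD36-negative library 4 were close. The log2 fold change was -1.72 (SE 0.50, interval -2.77 to -0.67, edgeR adjusted p = 0.0436). This call did not hold in 13 of 19 alternatives, among them 9 of the 10 fits that left out 1 library (all but that without CD36-positive library 1), with adjusted p from 0.00490 to 0.143 and log2 fold changes from -1.97 to -1.53 over all 19.

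Itgae encodes the integrin subunit CD103, which is carried by cDC1 of many tissues and by T cells resident in epithelia (chromosome 11, 73090583 to 73147446, plus strand). It was at 0.186, 0.677, 3.44, 0.676 and 0 CPM in CD36-positive libraries 1, 2, 3, 4 and 7, against 286, 234, 87.1, 97.1 and 112 CPM in CD36-negative libraries 1, 2, 4, 7 and 8. The highest CD36-positive library, 3, was not the one with the most Clec9a, and library 7, with the most Clec9a, had no Itgae count, which allows up to 0.238 CPM. The log2 fold change of -7.44 (SE 0.68, edgeR adjusted p = 2.59e-06) was the largest of the 9, and was -8.73 without CD36-positive library 3. The small gene Haspin lies inside Itgae on the other strand, with no exonic base in common.

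Batf3, the transcription factor on which cDC1 depend (chromosome 1, 191097847 to 191108945, plus strand), was at 29.6, 25.3, 8.88, 24.7 and 31.3 CPM in CD36-positive libraries 1, 2, 3, 4 and 7, against 24.2, 28.4, 34.1, 22.8 and 23.7 CPM in CD36-negative libraries 1, 2, 4, 7 and 8. Apart from the low CD36-positive library 3, the values of both groups lay in one range. The log2 fold change was -0.15, with a 95% interval from -0.78 to 0.48 (edgeR adjusted p = 0.826), so a fall as large as that of Clec9a lies outside the interval. Its sign was positive without CD36-positive library 3 (0.06) and without the CD36-positive libraries 1 and 3 (0.02). The mean of 23.9 ± 8.88 CPM in CD36-positive libraries and at 26.6 ± 4.69 CPM in CD36-negative libraries (SD, n = 5 each) made Batf3 the most abundant cDC1 gene of the CD36-positive libraries per kilobase of exon.

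Both cDC2 genes were lower in CD36-positive cells. Cd209a, a C-type lectin of the DC-SIGN family that is expressed by cDC2 and by monocyte-derived cells (chromosome 8, 3743397 to 3748984, minus strand), was at 1.303, 0, 0.143, 0.788 and 7.37 CPM in CD36-positive libraries 1, 2, 3, 4 and 7, against 167, 166, 192, 88.2 and 159 CPM in CD36-negative libraries 1, 2, 4, 7 and 8. CD36-positive library 7 held 93 of the 108 counts of its group, and the count of 0 in library 2 allows up to 0.339 CPM. Cd209a had a log2 fold change of -6.17 (SE 0.71, edgeR adjusted p = 2.61e-05), and -8.21 without CD36-positive library 7.

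Clec10a, a lectin for galactose-type sugars known as MGL1 or CD301a and shared with macrophages (chromosome 11, 70156197 to 70170834, plus strand), was at 12.3, 4.63, 4.30, 5.52 and 9.91 CPM in CD36-positive libraries 1, 2, 3, 4 and 7, against 88.8, 94.8, 150, 83.2 and 75.0 CPM in CD36-negative libraries 1, 2, 4, 7 and 8. CD36-positive libraries 1 and 7 were the highest of their group, and CD36-negative library 4 was well above the others of its group. Its log2 fold change was -3.75 (SE 0.32, edgeR adjusted p = 1.45e-06). Clec10a was the 1 gene of the 9 with counts that were not whole, and 9.02% of its transcript stretches of 50 bases occur in other genes, most often its neighbour Mgl2, so its counts and those of Mgl2 are uncertain to that extent. Mgl2 itself was at 0 to 6.97 CPM in CD36-positive libraries and at 69.7 to 181 CPM in CD36-negative libraries (log2 fold change -5.22, edgeR adjusted p = 5.49e-05, and -5.93 without CD36-positive library 7).

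**Figure D2:**
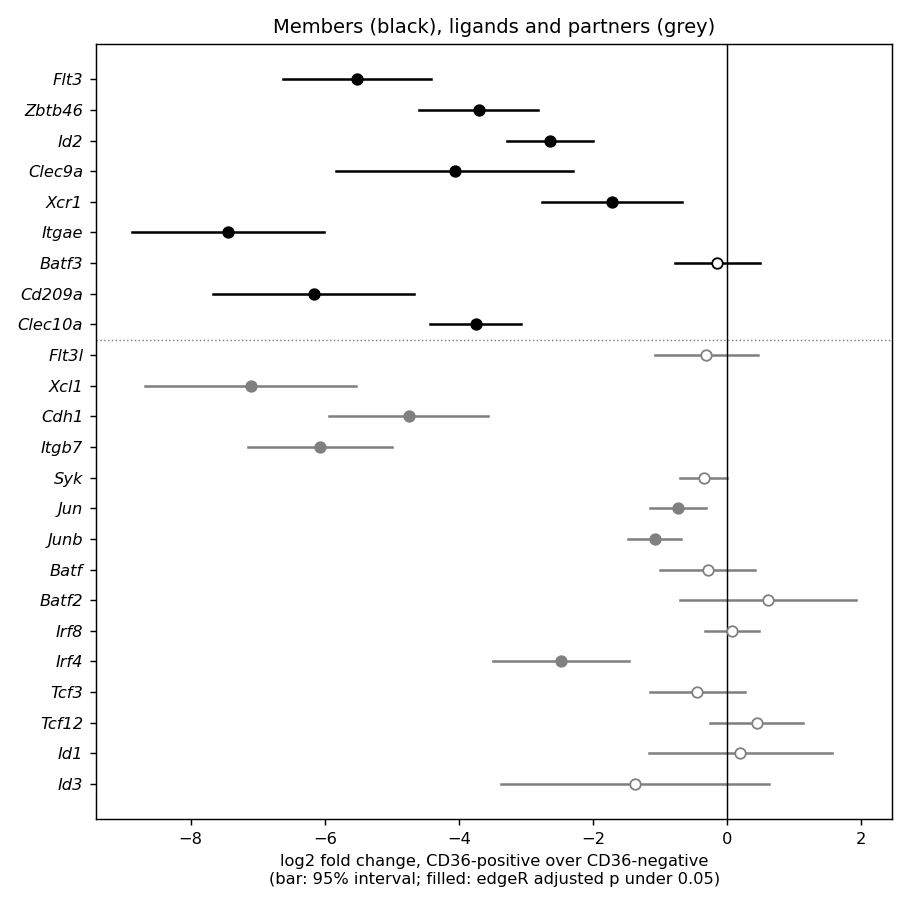
Log2 fold change of CD36-positive over CD36-negative cells with its 95% interval, for the 9 genes (black) and all 15 of their ligands and partners (grey); filled points passed edgeR's test at an adjusted p under 0.05. Values run from -7.44 for Itgae to 0.61 for Batf2, and the open points are Batf3 and 9 of the ligands and partners.

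Sequences of the promoters, from 250 bases before to 50 bases after the transcript start, were available in the RefSeq table (GRCm38.p6) for 7 of the 9 genes. They were searched on both strands for 4 short motifs of factors that act in dendritic cells. These were TGANTCA, an AP-1 site of the kind that Batf3 binds with Jun proteins, GAGGAAG, a core of PU.1 sites, GAAA followed after 2 bases of any kind by GAAA, a repeat bound by interferon regulatory factors, and GGAA followed after 2 bases of any kind by GAAA, a composite of an ETS and an IRF site. The repeat and the composite can overlap. In the order given, the motifs were held by 7.81%, 13.6%, 3.43% and 2.72% of all 32817 promoters. Of the 7 promoters, 1 held the AP-1 motif (Zbtb46, from -61 to -55, where the first transcribed base is 0), 1 the PU.1 motif (Batf3, from -153 to -147), 1 the ETS-IRF composite (Cd209a, from -9 to 0) and 0 the IRF repeat. The RefSeq starts of Zbtb46, Batf3 and Id2 lie inside the gene spans given above, downstream of their first base. For Zbtb46 the window (181424339 to 181424638) lies far inside a span that begins, on the minus strand, at 181459426. Its sequence and its AP-1 match therefore need not be those of the promoter that these cells use. The 3 windows with a match are shown because they set Batf3, which did not pass the test, beside Zbtb46 and Cd209a, which fell. The capitals mark the match.
Zbtb46, chr2:181424339-181424638, minus strand: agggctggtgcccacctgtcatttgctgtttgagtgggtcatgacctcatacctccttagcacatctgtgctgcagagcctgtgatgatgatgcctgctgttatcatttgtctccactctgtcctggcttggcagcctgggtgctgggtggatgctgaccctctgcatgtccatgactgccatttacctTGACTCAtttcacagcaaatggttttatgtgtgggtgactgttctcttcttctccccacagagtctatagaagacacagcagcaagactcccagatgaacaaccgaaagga
Batf3, chr1:191098164-191098463, plus strand: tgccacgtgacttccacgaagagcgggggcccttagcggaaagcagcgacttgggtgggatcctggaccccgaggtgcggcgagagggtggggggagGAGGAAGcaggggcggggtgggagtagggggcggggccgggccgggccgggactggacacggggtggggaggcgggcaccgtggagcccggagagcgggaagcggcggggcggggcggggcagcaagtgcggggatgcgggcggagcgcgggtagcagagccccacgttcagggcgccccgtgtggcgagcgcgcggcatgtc
Cd209a, chr8:3748935-3749234, minus strand: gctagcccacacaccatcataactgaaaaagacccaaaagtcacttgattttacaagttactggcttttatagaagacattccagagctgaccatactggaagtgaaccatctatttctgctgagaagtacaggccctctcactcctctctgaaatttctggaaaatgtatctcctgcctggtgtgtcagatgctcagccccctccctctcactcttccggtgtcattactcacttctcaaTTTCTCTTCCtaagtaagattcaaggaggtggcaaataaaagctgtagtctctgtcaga
The Batf3 promoter was 75.7% G and C and held 34 CG pairs, the most of the 7 promoters. The Cd209a promoter was at 44.0% and the Zbtb46 window, far inside its gene, at 50.7%, with 1 CG pair each. The medians over all promoters of the table were 52.7% and 7. Id2 (63.3%, 21 CG pairs) and Flt3 (61.0%, 18 CG pairs) also had promoters rich in CG and fell. A match or its absence in this window describes the sequence only.

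Set side by side, the median log2 fold change was -2.89 over the 4 cDC1 genes and -4.96 over the 2 cDC2 genes, a difference of 2.07, but the cDC1 genes spanned -7.44 to -0.15 and enclosed both cDC2 values. The summed level of the cDC1 genes was 34.8, 28.5, 15.2, 26.8 and 36.5 CPM in CD36-positive libraries 1, 2, 3, 4 and 7, against 330, 287, 138, 135 and 151 CPM in CD36-negative libraries 1, 2, 4, 7 and 8. Batf3 alone made up 58.5% to 92.0% of this sum in CD36-positive and 7.32% to 24.7% in CD36-negative libraries. Without Batf3 the cDC1 sum was 2.14 to 6.30 CPM in CD36-positive libraries and 104 to 306 CPM in CD36-negative libraries, and the groups were then far apart. The cDC2 sum was 13.6, 4.63, 4.44, 6.31 and 17.3 CPM in CD36-positive libraries 1, 2, 3, 4 and 7, against 256, 260, 343, 171 and 234 CPM in CD36-negative libraries 1, 2, 4, 7 and 8.

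Of the counts of the 6 subset genes, cDC1 genes took 67.9% to 86.0% in CD36-positive libraries, the lowest in library 7 (exact Clopper-Pearson 95% interval 64.2% to 71.4%) and the highest in library 2 (81.5% to 89.8%). In CD36-negative libraries the share was 28.7% to 56.4%, lowest in library 4 (27.4% to 30.0%) and highest in library 1 (55.2% to 57.6%). Every CD36-positive library thus lay above every CD36-negative one, but this separation rested on Batf3. Without Batf3 the cDC1 sum was above the cDC2 sum in CD36-positive library 3 (6.30 against 4.44 CPM) and CD36-negative library 1 (306 against 256 CPM). In all other libraries of both groups it was below the cDC2 sum, so the groups overlapped. The intervals of the shares treat each count as a separate molecule. PCR copies of one molecule can be counted more than once, so the intervals can be too narrow even for counting error. The share also follows gene length and the level of Batf3.

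**Figure D3:**
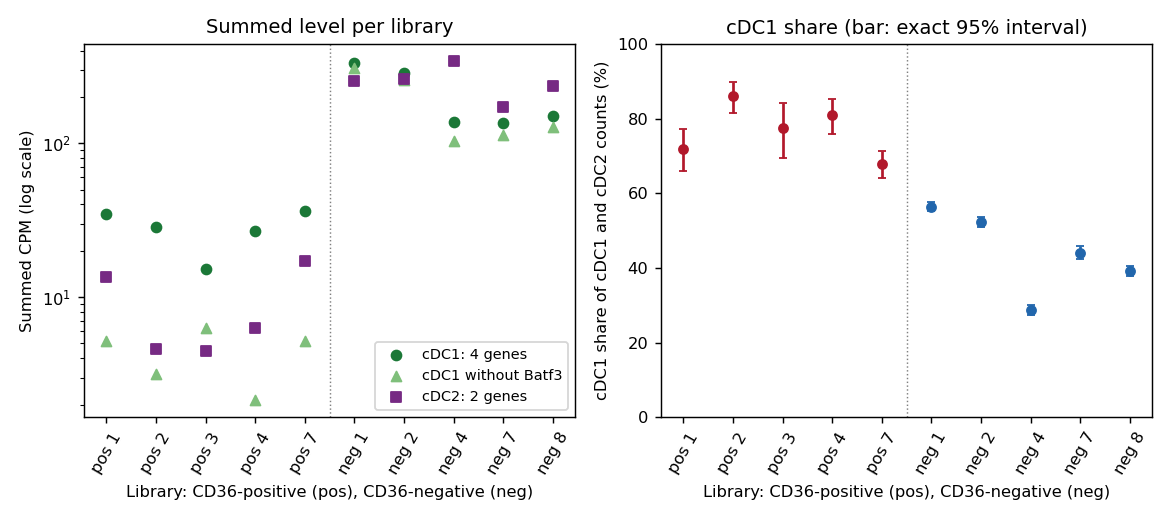
Left, summed CPM of the 4 cDC1 genes (circles), of cDC1 without Batf3 (triangles) and of the 2 cDC2 genes (squares) in each library on a log axis; right, the cDC1 share of the counts of these 6 genes with exact 95% intervals, CD36-positive libraries on the left of each panel. The cDC1 share is 67.9% to 86.0% in CD36-positive and 28.7% to 56.4% in CD36-negative libraries, while without Batf3 the cDC1 sum is at most 6.30 CPM in CD36-positive libraries. Without Batf3 that sum is below the cDC2 sum in most libraries of both groups.

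Each cDC1 gene was also compared with each cDC2 gene inside a library, as the log2 ratio of their counts with 0.5 added to each, over 8 pairs of genes and with an exact two-sided permutation test of 5 against 5 libraries. This test was chosen after the fold changes were known, and the smallest p it can give is 0.00794. The ratio of Batf3 to Clec10a was 1.71 ± 0.59 in CD36-positive and -1.86 ± 0.18 in CD36-negative libraries (log2, SD, n = 5 each), and its difference of 3.56 had an exact permutation p of 0.00794 (0.0159 after Benjamini-Hochberg adjustment over the 8 pairs). Batf3 to Cd209a (difference 7.62), Xcr1 to Cd209a (6.13) and Xcr1 to Clec10a (2.08) gave the same p, each with all 5 CD36-positive libraries above all CD36-negative ones. These ratios come from the same counts as the fold changes, which were already smaller in size for Batf3 and for Xcr1 than for either cDC2 gene. The p-values of these pairs therefore restate that difference and add no separate support for it. Clec9a to Cd209a rose by 3.09 (exact permutation p = 0.0238, adjusted 0.0317). Itgae moved the other way against Clec10a, with a ratio of -3.87 ± 2.93 in CD36-positive and 0.60 ± 0.97 in CD36-negative libraries (difference -4.47, exact permutation p = 0.0159, adjusted 0.0254). Clec9a to Clec10a (difference -0.97, exact permutation p = 0.246) and Itgae to Cd209a (-0.42, exact permutation p = 0.929) did not pass. With 2 added to each count instead of 0.5, the same 6 pairs passed, and the difference of Clec9a to Clec10a was -0.14. In CD36-positive libraries 1, 2, 3 and 4, however, Clec9a had 0 to 2 counts and Cd209a 0 to 7. The added count can set much of their ratio there and pulls it toward 0, more so when 2 is added. In CD36-negative libraries Cd209a was far above Clec9a. The Clec9a to Cd209a ratio therefore cannot tell which of these genes fell more.

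Divided by the exonic length of each gene, levels can be set against each other, here as CPM per kilobase of annotated exon. In CD36-negative libraries the mean level per kilobase was highest for Id2 (334.5, range 189.8 to 532) and next for Cd209a (97.6, 55.7 to 122). Then came Itgae (35.6, 19.0 to 62.4), Clec10a (33.9, 25.9 to 51.8), Flt3 (21.6, 16.4 to 29.7) and Batf3 (16.7, 14.3 to 21.3). Zbtb46 (5.66, 3.84 to 7.73), Clec9a (2.69, 1.75 to 4.31) and Xcr1 (2.15, 1.45 to 3.26) were the lowest. Ranges of neighbours in this order overlapped except between Id2 and Cd209a and between Batf3 and Zbtb46. Among the cDC1 genes, Itgae was thus far above Clec9a and Xcr1 in every CD36-negative library.

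In CD36-positive libraries the order per kilobase was Id2 (53.6, range 36.6 to 72.4), Batf3 (14.99, 5.56 to 19.6), Clec10a (2.53, 1.48 to 4.24) and Cd209a (1.21, 0 to 4.66). The others averaged under 1 CPM per kilobase, with Xcr1 at 0.654, Zbtb46 at 0.444, Flt3 at 0.442, Itgae at 0.217 and Clec9a at 0.148, and their ranges overlapped. Id2 and Batf3 were apart from each other and from the rest, and both are genes that other leukocytes also express.

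The CD36-negative libraries also differed among themselves. Libraries 1 and 2 held the highest Flt3, Zbtb46, Id2, Itgae and Xcr1, whereas library 4 held the highest Cd209a and Clec10a. In the same libraries the summed level of 17 T cell and NK cell genes was 555 CPM in library 1 and 530 CPM in library 2, against 190 to 244 CPM in libraries 4, 7 and 8. Much of this sum came from Klrd1, which also occurs in dendritic cells, and Klrk1. In CD36-negative libraries 1, 2, 4, 7 and 8 Klrd1 was at 98.8, 112, 68.1, 63.7 and 57.3 CPM, and Klrk1 at 62.3, 52.6, 54.1, 52.8 and 52.9 CPM. The summed level was 3.83 to 15.9 CPM in CD36-positive libraries, and of the 11 of these genes tested 10 were lower, with Tbx21 and Prf1 at no count in any CD36-positive library. The filter on low counts can keep a gene on its level in 1 group alone. Tbx21, at 0 counts in CD36-positive libraries, and Gzmb and Il2rb, at 7 and 8, could thus hardly be called higher. The number called lower partly reflects which genes were kept. T cells can carry Itgae, and NK cells and innate lymphoid cells Id2, so these values stand beside those results; their part in them was not tested. Among T cell genes, Cd3g was at 0, 0, 2.01, 0 and 0 CPM in CD36-positive libraries 1, 2, 3, 4 and 7, against 16.9, 22.9, 2.04, 1.98 and 4.68 CPM in CD36-negative libraries 1, 2, 4, 7 and 8 (log2 fold change -4.64, edgeR adjusted p = 0.0284). Cd8b1 reached 22.2 and 13.8 CPM in CD36-negative libraries 1 and 2, the libraries with the most Itgae, and Cd3e was at 0 to 1.00 CPM in CD36-positive libraries, against 0 to 4.72 CPM in CD36-negative libraries. T cells mostly lack CD11b and carry much CD45, and many NK cells carry CD11b. How many cells of either kind passed the gate was not tested.

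Ligands and partners of the 9 proteins were of both kinds. Of 15 such genes, 6 were lower in CD36-positive cells, 0 were higher and 9 did not pass, with a median log2 fold change of -0.44. Flt3l, the ligand of Flt3, was at 5.87 to 13.03 CPM in CD36-positive libraries and at 8.69 to 14.8 CPM in CD36-negative libraries and did not pass (log2 fold change -0.31, edgeR adjusted p = 0.681). Xcl1, the ligand of Xcr1 that NK and T cells make, was without a count in CD36-positive libraries 1, 4 and 7, at most at 0.565 CPM in libraries 2 and 3, against 13.9 to 46.8 CPM in CD36-negative libraries (-7.11, edgeR adjusted p = 1.04e-05). Without CD36-positive library 2 it was at -8.41.

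Itgb7, the beta subunit that pairs with CD103, was at 0, 5.08, 5.44, 1.24 and 3.96 CPM in CD36-positive libraries 1, 2, 3, 4 and 7, against 259, 268, 233, 141 and 195 CPM in CD36-negative libraries 1, 2, 4, 7 and 8. Its log2 fold change was -6.07 (SE 0.51, edgeR adjusted p = 1.44e-06). Cdh1, E-cadherin, the ligand of that integrin and itself made by some dendritic cells, was also lower (-4.75). Of the transcription factors, Irf8, which acts with Batf3 and is also used by microglia, was at 393 to 688 CPM in CD36-positive libraries and at 421 to 639 CPM in CD36-negative libraries. Its log2 fold change was 0.07 (interval -0.33 to 0.48, edgeR adjusted p = 0.867), and leaving out CD36-positive library 4 or 7 turned the sign (-0.02 and -0.0034). Irf4, the factor of cDC2, was lower, at 1.01 to 10.9 CPM in CD36-positive libraries and at 32.4 to 51.5 CPM in CD36-negative libraries (-2.48, SE 0.48, edgeR adjusted p = 0.00325). Junb (-1.08) and Jun (-0.73), which can pair with Batf3, were lower as well.

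Other genes known from these cells were taken from lists written with earlier results of these data known. Of 22 tested genes of both subsets, 16 were lower and 0 higher, with a median log2 fold change of -2.89. Kmo, an enzyme of tryptophan breakdown, was at 0 to 2.69 CPM in CD36-positive libraries and at 55.5 to 121 CPM in CD36-negative libraries (-6.56, and -8.37 without CD36-positive library 7). Btla, an inhibitory receptor (-5.91), Amica1, an adhesion molecule (-4.63), and H2-Oa, a regulator of MHC class II loading (-3.92), had the smallest p values among these genes of both subsets, each with an edgeR adjusted p of at most 1.45e-06. Kit, the receptor for stem cell factor (-5.30, and -7.03 without CD36-positive library 7), and Dpp4 (-3.26), CD26, were also lower. Itgax, the gene of CD11c, which activated microglia share, was at -0.90 (edgeR adjusted p = 0.0455; its line lay at a damaged block edge), and Runx3 (0.37) and Ncoa7 (0.05) did not pass.

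Of 19 tested genes known from cDC1, 8 were lower, 2 higher and 9 did not pass (median -1.38). Ly75, the endocytic receptor DEC-205, had 1 count over the CD36-positive libraries, in library 1, and was at 2.66 to 12.1 CPM in CD36-negative libraries. Tlr11, a receptor for profilin of parasites, also had 1 count in CD36-positive libraries, against 1.78 to 5.74 CPM in CD36-negative libraries. Ly75 and Tlr11 were kept on their CD36-negative level alone, so they could hardly be called higher. Cd24a (-3.96), a surface glycoprotein, and Hepacam2 (-3.32) had, besides Itgb7, the smallest p values of the list. Wdfy4, needed for cross-presentation by cDC1, was at 41.7 to 59.8 CPM in CD36-positive libraries and at 133 to 250 CPM in CD36-negative libraries (-1.74). The genes that rose were Cadm1, an adhesion molecule that marks cDC1 and is also found outside the immune system, at 165 to 252.3 CPM in CD36-positive libraries and at 70.3 to 122 CPM in CD36-negative libraries (1.23), and Rab7b (0.91).

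Of 17 tested genes known from cDC2, 8 were lower, 2 higher and 7 did not pass (median -0.46). Mgl2, Ltb, lymphotoxin beta (-4.35), and Il4i1, an amino acid oxidase (-3.14), had the smallest p values. Klf4 (-3.31, its line also at such an edge), a transcription factor that some cDC2 need, Relb (-1.45), an NF-kB subunit, and Cd7 (-3.90), which T and NK cells carry too, were lower, as were Clec4a1 (-1.26) and Irf4. The genes that rose were the lectin genes Clec4a2 (1.25) and Clec12a (0.65, edgeR adjusted p = 0.0482), of which Clec4a2 has close relatives in the genome and counts that were not whole. With 1 library left out, 1 of these genes and not 2 was higher in 9 of 10 fits, the exception being that without CD36-positive library 4. Sirpa, which cDC2 share with microglia, did not pass (-0.08).

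**Figure D4:**
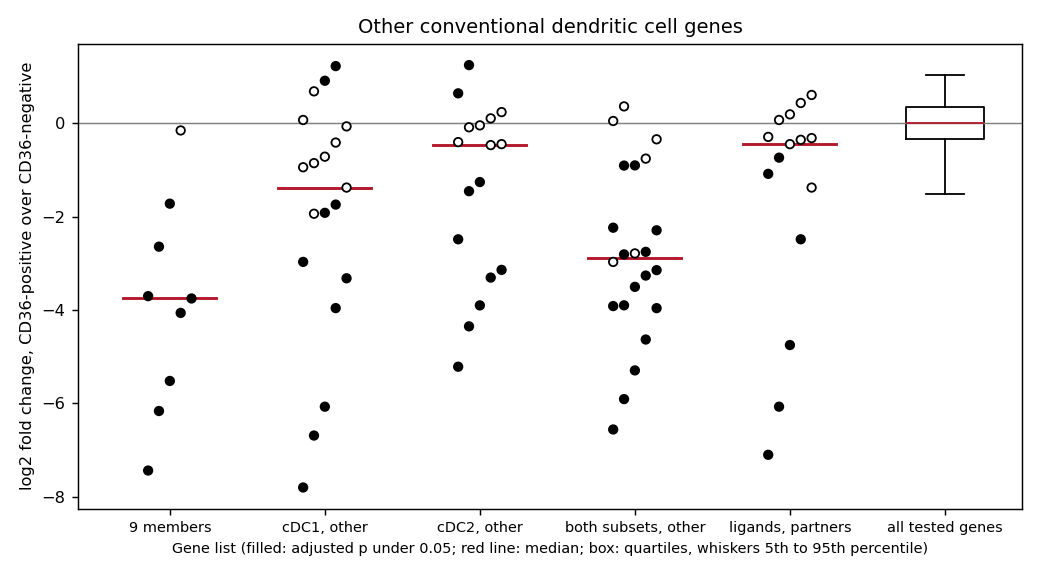
Log2 fold change of CD36-positive over CD36-negative cells for the tested genes of each list (points, filled where the edgeR adjusted p is under 0.05, red line at the median) beside all 11596 tested genes (box at the quartiles, whiskers at the 5th and 95th percentile). The medians are -3.75 for the 9 members, -1.38, -0.46 and -2.89 for the other cDC1, cDC2 and shared genes, and 0.02 for all genes.

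For each of the 9 genes the most similar profiles were found as the smallest root mean square difference of log2 CPM over the 10 libraries, each gene being centred on its own mean; a value of 1 is a typical difference of 1 log2 unit. The nearest genes to Flt3 were Rnd3 (0.735) and Kit (0.743), and to Zbtb46 Cd24a (0.609) and Tmem231 (0.673). Kmo (0.423) and the NK receptor gene Klrd1 (0.724), which also occurs in dendritic cells, were nearest to Cd209a. Col23a1, a collagen gene, was nearest to both Clec9a (0.466) and Clec10a (0.365), with Spint2 (0.575) and Cyp2ab1 (0.471) next, the last with no count in any CD36-positive library. Slc52a3 (1.07) and Chil3 (1.11) were nearest to Itgae, at the largest distances of the 9 genes. Gpr171 (0.323) and Crip1 (0.332) were nearest to Id2, Jak2 (0.354) and Sulf2 (0.376) to Xcr1, and Cnppd1 (0.194) and Tarbp2 (0.20) to Batf3. With a prior count of 0.5 in place of 2, Tmem231, Spint2, Chil3, Klrd1 and both genes given for Clec10a were no longer among the nearest pair. These are descriptions of 10 libraries in which the group difference itself sets much of the profile.

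Markers of other cells that the gate could hold were set beside these genes. The summed level of 14 monocyte genes was 592 to 1123 CPM in CD36-positive libraries and 1520 to 2542 CPM in CD36-negative libraries, and 9 of 14 tested genes were lower, while Ccr2 was not (0.01, edgeR adjusted p = 0.980). Monocyte-derived cells can carry Cd209a, Clec10a and Mgl2. The highest summed monocyte level was in CD36-negative library 4, the library with the highest Cd209a and Clec10a. The summed level of 14 neutrophil genes was 86.0 to 195 CPM in CD36-positive libraries and 343 to 881 CPM in CD36-negative libraries, with 8 of 9 tested genes lower. Retnlg, G0s2, Ngp, Ly6g and Mpo had no count in CD36-positive libraries. Over the CD36-negative libraries Retnlg had 4123 counts and G0s2 397, but Ngp, Ly6g and Mpo only 9, 13 and 11, and these last were not tested. Retnlg and G0s2 were kept on their CD36-negative level alone, so they could not be called higher. Csf3r, the most abundant of the 14 genes, did not pass (-0.53, edgeR adjusted p = 0.302). Their part in the values of the 9 genes was not tested.

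Plasmacytoid dendritic cells are relatives that also need Flt3. Of 9 tested genes of these cells 2 were lower and 1 higher, and the summed level was 1010 to 1698 CPM in CD36-positive libraries and 686 to 1021 CPM in CD36-negative libraries, made up mainly of Bst2, Siglech and Irf7, which microglia also express. Those lower were Spib (-4.91) and Pacsin1 (-3.39), and the one that rose was Bst2 (0.97). Of B cell genes 0 of 3 tested passed edgeR's test, and Cd79b was at 18.6 to 30.8 CPM in CD36-positive libraries and at 9.37 to 32.2 CPM in CD36-negative libraries (log2 fold change 0.13). Photoreceptor genes summed to 118 to 894 CPM in CD36-positive libraries and 390 to 2299 CPM in CD36-negative libraries, and 2 of 10 tested were lower.

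**Figure D5:**
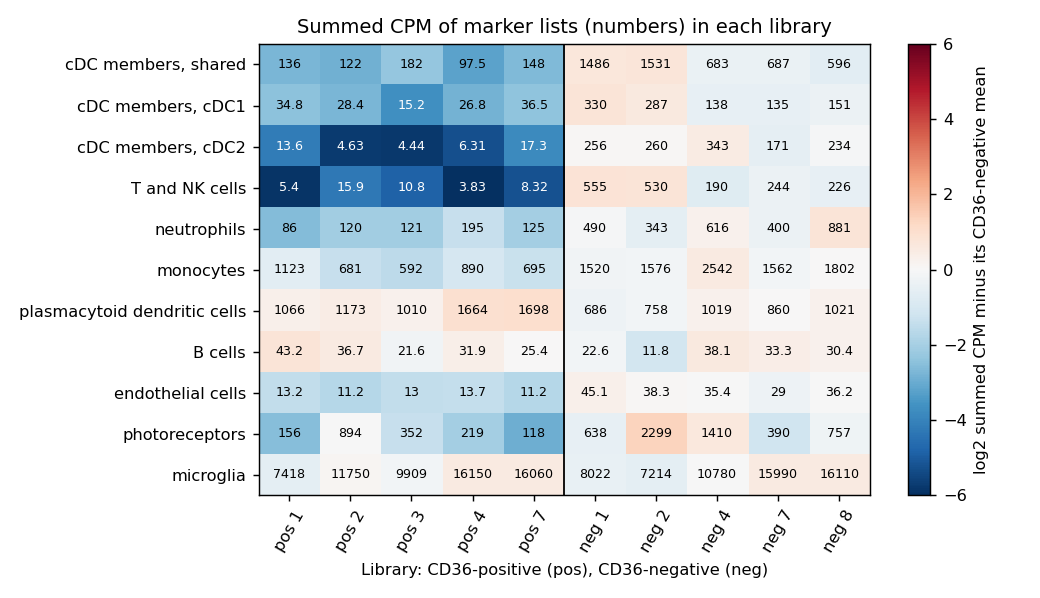
Summed CPM of marker lists (numbers) in each library, CD36-positive on the left and CD36-negative on the right; colour shows log2 of the sum minus its mean over CD36-negative libraries. The 3 groups of conventional dendritic cell genes and the T and NK cell genes are lower in every CD36-positive library, with 3.83 to 15.9 CPM of T and NK cell genes there, while microglia genes span 7418 to 16150 CPM in CD36-positive libraries and 7214 to 16110 CPM in CD36-negative libraries. The sums of neutrophil, monocyte and endothelial genes are also lower in every CD36-positive library than in any CD36-negative library.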

How the data were processed

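The authors deposited 1 column of expected counts (estimated counts) per library, by gene symbol and without normalization, per the file headers; 91.9% of values were whole. The submitters' processing notes name fastp 0.18.0, Bowtie2 2.2.8, HISAT2 2.1.0, StringTie 1.3.1 and mm10 without roles; the program that counted and its use of strand are not given in the sources used here. Of 22008 lines, 8 without 10 values and a symbol and 131 repeats were dropped; the damage lay at block edges, and no line of the 9 genes crossed one. The 27 symbols turned into dates by a spreadsheet are not reported.

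Counts were rounded, filtered with filterByExpr (minimum count 10), normalized by TMM and fitted in edgeR 4.0.16 (R 4.3.3), group being the only term; 11596 genes were tested and p-values adjusted over all of them. Standard errors and intervals (95%) come from the quasi-likelihood F statistic. The fit was tested on simulated data. Libraries of a group differed by more than counting noise (chi-square per degree of freedom 23.5 to 117). A level of 0 allows 3 counts. Positions and exon lengths are from GENCODE M21 (GRCm38). The genes, lists and comparisons were chosen with earlier results of these data known. Beside the 9 genes, the named genes are 5 ligands and partners (Flt3l, Xcl1, Itgb7, Irf8 and Irf4), the 3 with the smallest p of each dendritic cell list, the 2 nearest profiles of each member, and the most abundant gene of each marker list, which is not reported here for 2 lists (microglia and photoreceptors); Cdh1, Jun, Junb, Dpp4, Itgax, Runx3, Ncoa7, Batf2, Ly75, Tlr11, Wdfy4, Cadm1, Rab7b, Klf4, Relb, Cd7, Clec4a1, Clec4a2, Clec12a, Sirpa, Spib and Pacsin1 were named after their values were seen, as were the marker genes given beside the most abundant one of a list. Alternatives were DESeq2 1.42.0 (size factors and Wald test), limma 3.58.1 voom with quality weights, other filters and thresholds, a replicate block, libraries left out and a prior count of 0.5 for the profiles.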

Additional observations from a re-analysis of the deposited data

Results flagged for a closer look

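With 18 groups of 5 libraries examined (9 genes in each of the 2 sorts), a gap test at the 95% level marked 4 single libraries, where chance marks about 1 group in 20. That rate assumes normally distributed values, and CPM values from counts near 0 in CD36-positive libraries need not follow it. Whether 4 exceeds chance was not tested. In CD36-positive library 7, Clec9a was at 1.66 CPM against 0 to 0.372 CPM in the other CD36-positive libraries. In the same library Cd209a was at 7.37 CPM against 0 to 1.303 CPM in the others. In CD36-positive library 3, Itgae was at 3.44 CPM against 0 to 0.677 CPM in the others. In CD36-negative library 4, Clec10a was at 150 CPM against 75.0 to 94.8 CPM in the others. Each of the CD36-positive values was still below the lowest CD36-negative library of that gene.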

How the results depend on the processing

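Of 178 values of the 9 genes under alternatives, 162 kept direction and side of the threshold, 13 (all of Xcr1) lost the call and 3 (all of Batf3, which never passed) changed sign. Members lower numbered 8 in the fit as reported, 6 under the filter of 10 CPM in 5 libraries, where Clec9a and Xcr1 were not tested, and 7 or 8 elsewhere. No clear pairing by replicate number was seen (correlations of deviations 0.0288, 0.133, 0.0989 and 0.101, and 1 of 4 numbers matched best with itself). With 4 shared numbers this cannot tell whether a number marks 1 mouse. With the block, all tested genes higher numbered 184 (303 without it), 1 cDC1 gene and 1 cDC2 gene were higher, Xcr1 did not pass (-1.76, adjusted p = 0.124), and Batf3 was at 0.029 and Tarbp2 at 0.15.

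The count of all tested genes higher was 533 with the DESeq2 Wald test, 188 without the CD36-positive libraries 1 and 3, 90 at an adjusted p of 0.01 and 132 to 380 with 1 library left out; that of all tested genes lower was 330 at an adjusted p of 0.01, against 550, and 422 to 583 with 1 library left out. Other cDC2 genes higher numbered 1 with no filter, without the CD36-positive libraries 1 and 3, without both libraries numbered 7 (added after seeing the data), and at an adjusted p of 0.01, and 1 to 2 with 1 library left out; other cDC1 genes lower numbered 5 under the filter of 10 CPM. The cDC1 minus cDC2 median was 1.88 to 2.42 in every alternative that tested all 6 genes. Sign changes among genes that did not pass were Ccr2 (-0.012 with no filter, -0.17 with limma voom, -0.24 without the CD36-positive libraries 1 and 3, -0.012 without both libraries numbered 7, -0.28 to 0.14 over all), Batf3 (0.018) and Tarbp2 (0.18) without the CD36-positive libraries 1 and 3, and with 1 library left out Batf3 (-0.27 to 0.059), Tarbp2 (-0.21 to 0.12), Irf8 (-0.023 to 0.17) and Cd79b (-0.067 to 0.27). Lines at block edges left out, also added, changed no call of the 9 genes. Of other named genes, Tmem231, Col23a1 and Pecam1 lost their call in some alternatives. The causes were not tested. Counts under 10 in at least 1 library limit the precision of Flt3, Clec9a, Itgae and Cd209a in CD36-positive cells.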
